A study of Homo sapiens with 6 samples.

Results

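The genes described here are 10 mouse genes that serve as identity markers of fibroblasts and pericytes, measured in the host tissue of human tumours grown in mice. They were chosen by Ensembl ID, not by their measured values: Pdgfra, Pdgfrb, Acta2, Tagln, Rgs5, Dcn, Fap, Thy1, Lum and Vim. All 10 were found among the 77134 rows of the count table, and all 10 passed the filter on low counts, among 12637 genes tested. The tumours grew under the skin of athymic BALB/c nude mice from injected cells of A549, an established human lung adenocarcinoma line. Both groups carried a stable lentiviral construct with EGFP and a neomycin resistance gene. The 3 control tumours came from A549 cells with the empty vector pLV-CMV-EGFP-Neo, and the 3 overexpression tumours from cells with pLV-CMV-HIF1A-AS3-EGFP-Neo. HIF1A-AS3 is transcribed antisense to the human gene for the alpha subunit of the hypoxia-inducible factor. The construct was carried by the human tumour cells, while the genes described here were read on mouse IDs. The labels do not give the age of the mice, whether each stable line was a clone or a pool, or whether each tumour came from its own mouse, so the p-values reflect variation among these tumours only.

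Fibroblasts lay down and remodel the collagen-rich matrix of a tissue, and pericytes wrap the small vessels and contract. Both belong to the mesenchymal lineage and receive signals through the receptors of platelet-derived growth factor (PDGF): PDGF-B from endothelial cells recruits pericytes through the beta receptor, and the alpha receptor is typical of fibroblasts. In a xenograft the tumour cells are human and the stroma is supplied by the host, so fibroblasts and pericytes there are mouse cells. Activated fibroblasts, or myofibroblasts, take on contractile proteins that they share with pericytes and smooth muscle, so no single one of these genes marks 1 cell type alone.

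Libraries held 4167784 to 4769157 estimated counts. The control libraries resembled each other (mean Pearson's r across genes of log2 counts-per-million, or CPM, 0.948 to 0.959 with the other controls), while 2 of the overexpression libraries had a higher mean r with the controls than with their own group. For overexpression replicate 2 the mean r was 0.951 against the controls and 0.908 against its own group, and for replicate 3 it was 0.923 and 0.920. For replicate 1 it was 0.903, the lowest of the 6 libraries, and 0.912. Replicate 1 also had the smallest effective depth (the total over tested genes times its scaling factor), 3520834 against 4347676 to 4745240 in the others. Its total of estimated counts was the largest of the 6 libraries, 4769157. The small effective depth of replicate 1 came from its scaling factor, 0.742, the lowest of the 6 libraries. Results below are therefore given with and without the libraries they rest on. No 2 libraries were duplicates, the closest pair differing by 3.89 times the sampling variance per gene. Counts sit on mouse gene IDs, and human RNA from the A549 cells similar enough to a mouse transcript may have been counted with them; how much was not tested. In bulk tumour RNA, fewer cells of a type and less RNA per cell cannot be told apart. Marker lists for endothelial cells, macrophages, muscle, fat, epithelium, T cells and nerve were not analysed here, because their symbols could not be matched to the IDs of the table.

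Of the 10 genes, 0 passed the threshold between the groups (adjusted p below 0.05 in edgeR's quasi-likelihood test), where 0.0158% of all genes tested did, and single overexpression tumours lay far from each other. One overexpression tumour had 2.21-fold and 2.89-fold the control mean of the contractile genes Acta2 and Tagln. The proteoglycan genes Dcn and Lum were above all controls in 2 overexpression tumours and below all controls in the third. Rgs5, a pericyte marker, was the only one of the 10 below every control in all 3 overexpression tumours, with TMM scaling as with library totals alone. Tagln and Vim were the only ones above every control in all 3 with TMM scaling, and with library totals alone neither was. Such separation of the groups, seen for 3 of the 10, was found in 13.2% of all genes tested (6.79% higher and 6.36% lower). Pdgfra, Pdgfrb and Thy1 had fold changes near 1.

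**Figure D1:**
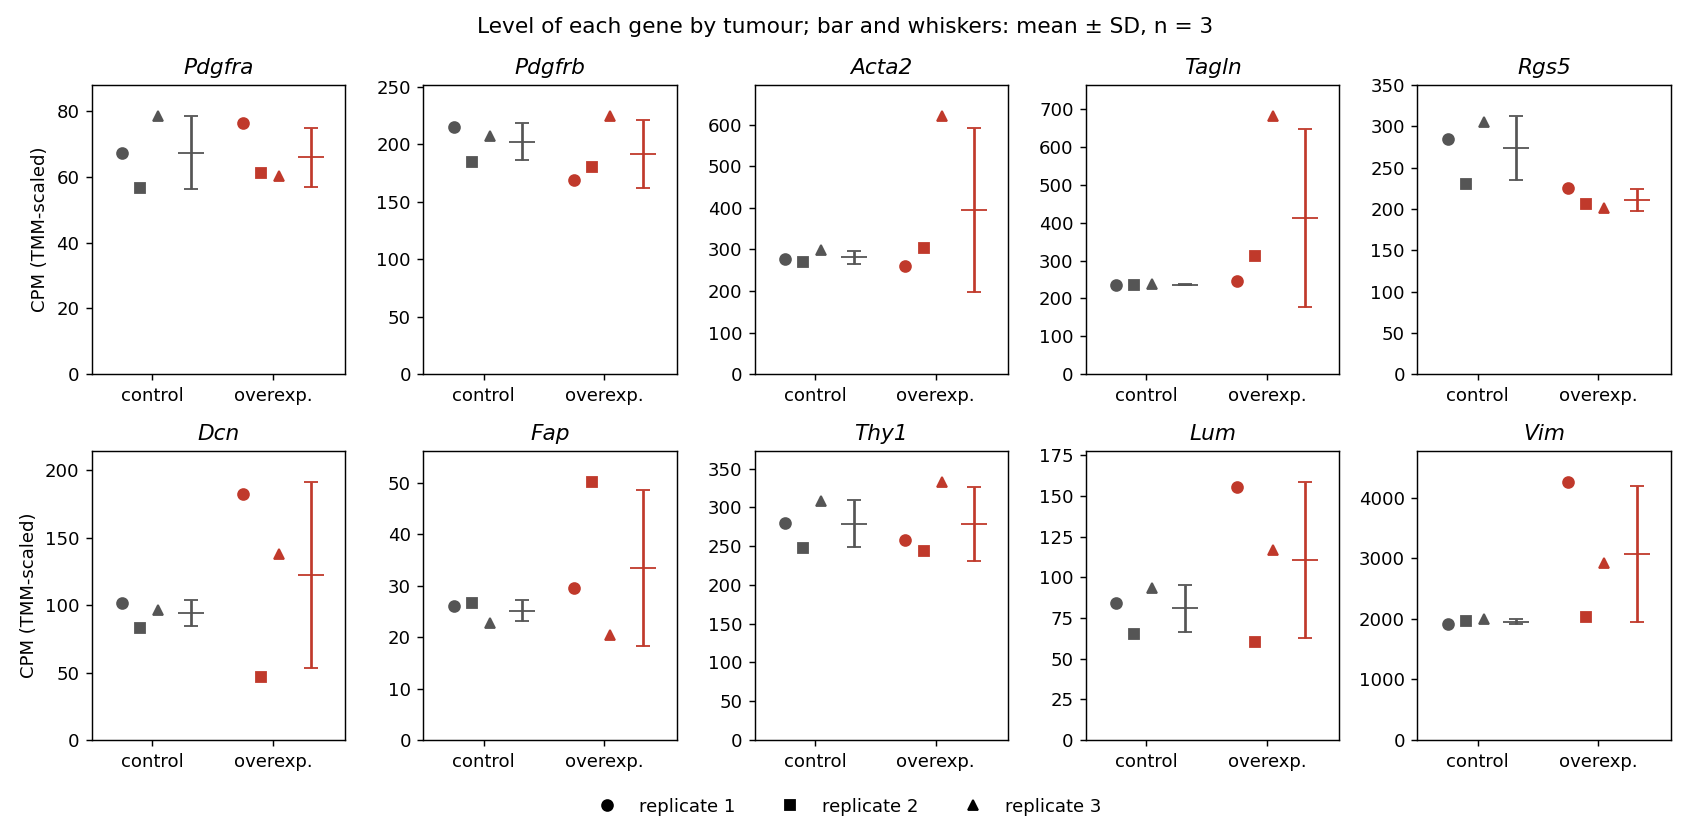
TMM-scaled CPM of each gene on the y axis, starting at 0, for 3 control tumours (grey) and 3 overexpression tumours (red), with replicates 1, 2 and 3 as circles, squares and triangles and the mean ± SD beside them. Overexpression replicate 3 stands high for Acta2 and Tagln, replicate 1 for Dcn, Lum and Vim, and replicate 2 for Fap.

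The levels are CPM, in which each library total over tested genes is first adjusted by its TMM factor for differences in composition. CPM are not divided by transcript length, so they are compared here between tumours for 1 gene and not between genes.

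The PDGF receptor genes were at similar levels in both groups. Pdgfra (ENSMUSG00000029231), the alpha receptor found on fibroblasts and their progenitors, measured 67.2, 56.5 and 78.6 CPM in controls 1, 2 and 3 and 76.4, 61.3 and 60.5 CPM in overexpression replicates 1, 2 and 3. All 3 overexpression values lay inside the range of the controls with TMM scaling. Library totals alone put replicate 1 below all controls, at 56.7 CPM against 60.3 to 86.3. The TMM-scaled means were 67.5 ± 11.1 and 66.1 ± 8.96 CPM (SD, n = 3 each). The log2 fold change was -0.03 ± 0.19 (SE), with a 95% interval from 0.72-fold to 1.33-fold. Pdgfrb (ENSMUSG00000024620), the beta receptor that pericytes need to attach to vessels, measured 215, 185 and 207 CPM in controls 1, 2 and 3 and 169, 180.2 and 225 CPM in overexpression replicates 1, 2 and 3. Overexpression replicates 1 and 2 were just below the lowest control and replicate 3 just above the highest, so the groups overlapped. With library totals alone replicate 1 was further below, at 125 CPM against 197 to 236, and replicate 3 lay inside the range. The log2 fold change of Pdgfrb with TMM scaling was -0.08 ± 0.18 (SE), and the interval ran from 0.706-fold to 1.26-fold. Adjusted p values were 0.97 for Pdgfra and 0.92 for Pdgfrb (edgeR quasi-likelihood test, Benjamini-Hochberg over all genes tested). For both receptors the interval leaves out a change of 1.5-fold in either direction, and an absence of change is not shown.

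The contractile genes were uneven among the overexpression tumours. Acta2 (ENSMUSG00000035783) encodes the smooth muscle actin of pericytes, smooth muscle cells and myofibroblasts. It measured 276, 269 and 299 CPM in controls 1, 2 and 3 and 260.4, 303 and 621 CPM in overexpression replicates 1, 2 and 3. Replicate 1 was below all controls, replicate 2 barely above them and replicate 3 far above, so the groups overlapped. Tagln (ENSMUSG00000032085) encodes transgelin (SM22), an actin-binding protein of the same contractile cells. It measured 236, 235 and 239 CPM in controls 1, 2 and 3, a coefficient of variation of 0.854%, against 247, 311 and 683 CPM in overexpression replicates 1, 2 and 3. Control estimates of 1040 to 1112 counts carry a counting error larger than that, so it does not measure spread among tumours. All 3 overexpression tumours were above all 3 controls, but replicate 1, at 871 counts, only by a margin within counting error. With scaling by library totals alone replicate 1 fell below the controls, at 184 CPM against 251 to 262, and the groups overlapped.

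The log2 fold change of Tagln was 0.81 ± 0.37 (SE), or 1.75-fold with a 95% interval of 0.968 to 3.16. That of Acta2 was 0.49 ± 0.33 (SE), or 1.40-fold with an interval of 0.823 to 2.39. Adjusted p values were 0.70 and 0.74 in edgeR, with unadjusted p of 0.061 and 0.18. Both values rested on 1 tumour. Without overexpression replicate 3 the log2 fold change was 0.23 for Tagln and 0.00 for Acta2 (adjusted p 0.70 and 1.00, edgeR). Estimates of both genes were non-whole in all 6 libraries, as can happen where reads are shared with other transcripts. Actin genes are close relatives in sequence, and the level of Acta2 is uncertain to that extent. Of the 60 estimates of the 10 genes, 24 were whole, and those of Fap, Thy1 and Vim were non-whole in all 6 libraries as well.

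Rgs5 (ENSMUSG00000026678) went the other way from the contractile genes. It encodes a regulator of G-protein signalling that is abundant in pericytes. Its level was 285, 230.5 and 306 CPM in controls 1, 2 and 3 and 226, 206 and 201 CPM in overexpression replicates 1, 2 and 3. Every overexpression tumour was below every control, though control replicate 2 and overexpression replicate 1 were only a few CPM apart. The means were 274 ± 38.9 and 211 ± 13.3 CPM (SD, n = 3 each). The log2 fold change was -0.38 ± 0.18 (SE), with an interval from 0.575-fold to 1.03-fold. The unadjusted p was 0.072 and the adjusted p 0.70 in edgeR, so the difference did not pass the threshold over all genes tested. Of the 3 genes whose groups lay apart, Rgs5 was the one whose groups also lay apart with library totals alone, where its log2 fold change was -0.62 (unadjusted p 0.018, adjusted p 0.74 in edgeR) beside a median of -0.21 over all genes. With library totals the median gene moved down, which favours separation on the low side. With TMM scaling, leaving out each library in turn gave a log2 fold change of Rgs5 of -0.48 to -0.29.

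**Figure D2:**
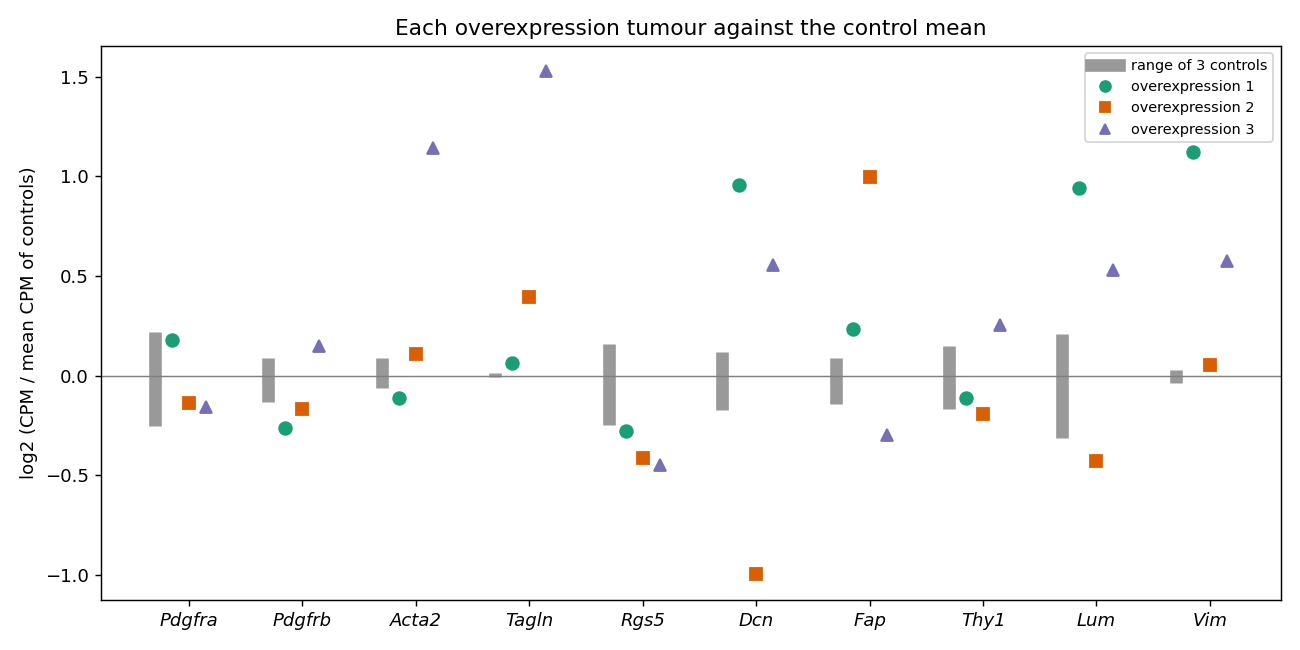
Level of each gene in overexpression replicates 1, 2 and 3 (green circles, orange squares, purple triangles) as log2 of its CPM over the mean CPM of the 3 controls, with the range of the controls as a grey bar and 0 as the control mean. Tagln reaches 1.53 in replicate 3, and Dcn runs from -0.999 in replicate 2 to 0.96 in replicate 1.

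Among the small leucine-rich proteoglycan genes the overexpression tumours lay on both sides of the controls. Dcn (ENSMUSG00000019929) encodes decorin, which fibroblasts secrete and which binds collagen fibrils and growth factors of the TGF-beta family. It measured 102, 83.2 and 96.7 CPM in controls 1, 2 and 3 and 182, 47.0 and 138 CPM in overexpression replicates 1, 2 and 3. Replicates 1 and 3 were above all controls and replicate 2 below all of them, a 3.88-fold span within the overexpression group against 1.22-fold among controls. Lum (ENSMUSG00000036446) encodes lumican, a keratan sulfate proteoglycan that regulates fibril thickness. It measured 84.3, 65.1 and 93.5 CPM in controls 1, 2 and 3 and 155, 60.1 and 117 CPM in overexpression replicates 1, 2 and 3. The pattern was that of Dcn, with replicate 1 highest, replicate 3 next and replicate 2 below all controls. With library totals alone replicate 3 was the highest for both genes. There Dcn was at 141 CPM in replicate 3 and 135 in replicate 1, and Lum at 120 and 115.

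Fitted log2 fold changes were 0.38 ± 0.43 (SE) for Dcn and 0.45 ± 0.33 (SE) for Lum, with edgeR's adjusted p at 0.83 and 0.76. Intervals ran from 0.653-fold to 2.59-fold for Dcn and from 0.798-fold to 2.34-fold for Lum. Both values turned on which overexpression tumour was counted. Without replicate 2, the library that most resembled the controls, they were 0.77 and 0.75 (adjusted p 0.12 and 0.15, edgeR). Without replicate 1 they were -0.06 and 0.09 (adjusted p 1.00 for both, edgeR). With library totals alone they were 0.08 and 0.16, beside a median of -0.21 over all genes.

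The genes of the surface proteins Fap and Thy1 showed other patterns. Fap (ENSMUSG00000000392), fibroblast activation protein, is a serine protease carried by activated fibroblasts of tumours and wounds. It had the fewest counts of the set, 89.3 to 238 estimated counts per library, and measured 25.9, 26.7 and 22.8 CPM in controls 1, 2 and 3 and 29.5, 50.2 and 20.5 CPM in overexpression replicates 1, 2 and 3. The highest value was in replicate 2, the tumour lowest in Dcn and Lum, and replicate 3 was below all controls. Its log2 fold change was 0.41 ± 0.32 (SE; adjusted p 0.76, edgeR; 95% interval 0.798-fold to 2.22-fold), and without replicate 2 it was -0.01. Thy1 (ENSMUSG00000032011) encodes CD90, a membrane glycoprotein of fibroblasts that is also carried by T cells and neurons. It measured 280.0, 248 and 309 CPM in controls 1, 2 and 3 and 258, 244 and 333 CPM in overexpression replicates 1, 2 and 3. Overexpression replicate 1 lay within the range of the controls, replicate 2 just below and replicate 3 just above. With library totals alone replicate 1 was below the controls too, at 192 CPM against 265 to 339. The log2 fold change of Thy1 was 0.00 ± 0.20 (SE; adjusted p 1.00, edgeR), with an interval from 0.725-fold to 1.37-fold.

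Vim (ENSMUSG00000026728) encodes vimentin, the intermediate filament protein of fibroblasts, pericytes, endothelial cells and leukocytes, and is therefore the least specific gene of the set. It measured 1907, 1966 and 1989 CPM in controls 1, 2 and 3 and 4259.8, 2028 and 2915 CPM in overexpression replicates 1, 2 and 3. Replicates 1 and 3 stood well above the controls, and replicate 2 exceeded the highest control by a margin smaller than the 42.5 CPM SD of the controls. The means were 1954 ± 42.5 and 3067 ± 1124 CPM (SD, n = 3 each), a 1.57-fold difference with an interval from 0.943 to 2.61. The log2 fold change was 0.65 ± 0.32 (SE; adjusted p 0.70, edgeR). With library totals alone the groups overlapped, since replicate 2 was at 2076 CPM and the lowest control at 2093. Without replicate 1 the log2 fold change was 0.31, and without replicate 2 it was 0.88 (adjusted p 1.00 and 0.16, edgeR). A549 cells express vimentin of their own, and how much human RNA was counted in the mouse row was not tested.

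**Figure D3:**
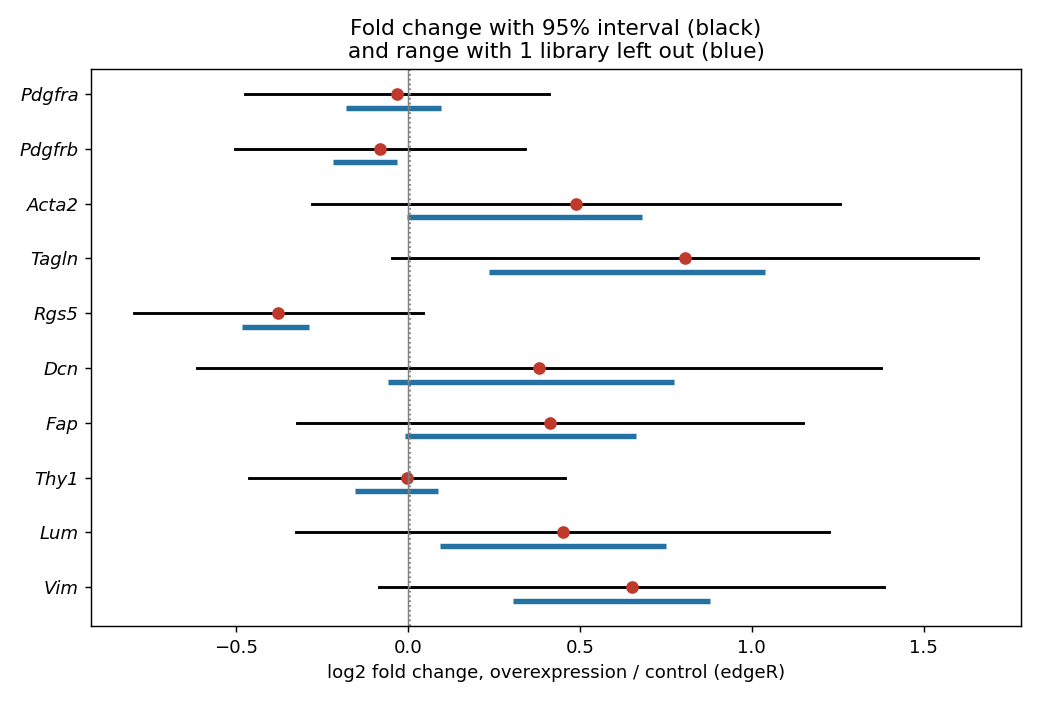
Log2 fold change of each gene (overexpression over control, edgeR) as a red point with its 95% interval in black, and in blue the range of the same value when 1 library is left out. The dotted line is the median of all genes tested, 0.01. Every black interval includes 0, and the blue ranges of Pdgfra, Acta2, Dcn, Fap and Thy1 do too.

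Counted over the set, edgeR called 0 of 10 genes by adjusted p and also 0 of 10 at p under 0.05 before adjustment, where 6.29% of all genes tested fell, and limma-voom gave 0 by both. DESeq2 gave 0 of 10 by adjusted p, and 2 at p under 0.05 before adjustment, Tagln and Vim, where 6.9% of all genes in that fit fell. In edgeR without overexpression replicate 2 the unadjusted p was under 0.05 for 4 of them, Tagln, Dcn, Lum and Vim, whose smallest adjusted p was 0.12. In that fit 20.5% of all genes tested had an unadjusted p under 0.05, so the 4 of 10 are to be read against a larger share than in the fit of all 6 libraries. Groups that did not overlap, 3 of 10 with TMM, were 1 of 10 with library totals alone, against 14.9% of all genes on that scale. The median log2 fold change of the 10 genes was 0.40, beside 0.01 over all genes tested, with 6 of 10 values positive, against 50.6% of all genes tested. That median was 0.05 without overexpression replicate 1 and 0.13 without replicate 3, so it too rested on single tumours. With library totals alone it was 0.12, where the median of all genes was -0.21.

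The spread within groups differed among the genes. Among controls the SD of log2 CPM had a median of 0.14 over the 10 genes, beside 0.20 over all genes tested, and was lowest for Tagln, 0.01, and Vim, 0.03. The SD also depends on how many counts a gene has, and the genes were not matched by level, so the shares below carry that limit. Among overexpression tumours the median was 0.59 over the 10 genes, beside 0.37 over all genes. Dcn, at 1.03, had a larger SD among overexpression tumours than 93.5% of all genes tested, and Tagln, at 0.77, than 86.0%. At the other end, Rgs5 had an SD of 0.09 among overexpression tumours, with 4.73% of all genes below it, and Pdgfra one of 0.19. The SD was larger among overexpression tumours for 8 of the 10 genes, all but Pdgfra and Rgs5. For all genes tested that share was 76.4%, close to 8 of 10. With library totals alone it was again 8 of 10, against 81.6% of all genes. The sizes of the spread depended on scaling. Among overexpression tumours the coefficient of variation was 6.33% with TMM and 12.1% with library totals for Rgs5. For Pdgfra it was 13.6% and 5.46%, the lowest of the set on that scale. It was 15.5% and 29.2% for Pdgfrb, 17.2% and 28.8% for Thy1, and 36.6% and 21.2% for Vim.

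**Figure D4:**
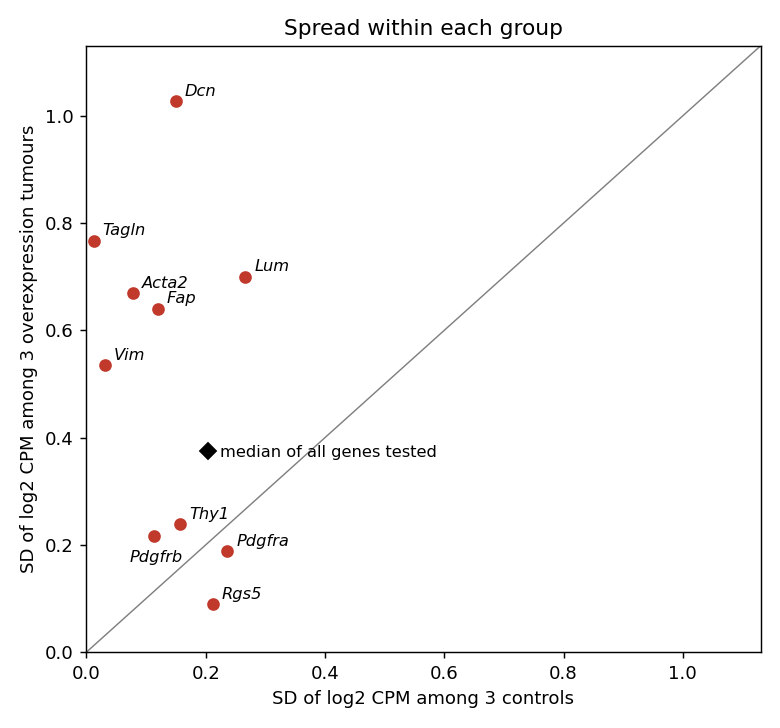
SD of log2 CPM among 3 overexpression tumours (y axis) against that among 3 controls (x axis), 1 red point per gene, with the median of all genes tested as a black diamond and the line of equal spread in grey. Dcn, Tagln, Lum, Acta2, Fap and Vim lie above the diamond, and Pdgfra and Rgs5 lie below the line.

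The genes did not move as 1 block from tumour to tumour. For each of the 45 pairs of genes, the 15 pairs of libraries were checked for whether both genes placed them in the same order of CPM. Dcn and Lum gave the same order in 14 of 15. Acta2 and Tagln, Pdgfrb and Thy1, Tagln and Vim, and Thy1 and Lum each gave it in 12. The median over gene pairs was 8, and pairs of other genes were not counted to set beside it. The lowest counts involved Fap, which shared the order of Thy1 in 1 of 15 and that of Pdgfrb in 2. Tagln and Rgs5 gave the same order in 3. Counts of 4 came from Fap with Lum, Fap with Acta2 and Rgs5 with Vim. Pdgfra and Pdgfrb gave the same order in 6. These counts describe 6 libraries that share their scaling and carry no test. By tumour, overexpression replicate 3 held the highest value of the 6 libraries for 4 genes (Pdgfrb, Acta2, Tagln and Thy1), replicate 1 for 3 (Dcn, Lum and Vim) and replicate 2 for 1 (Fap). Replicate 3 was above all controls for 7 of the 10 genes and below them for 2. Replicate 2 was above for 4 and below for 5, and replicate 1 above for 5 and below for 3. Among all genes tested, 34.1% were above all controls and 33.6% below them in replicate 3, 31.1% above and 25.04% below in replicate 2, and 35.1% above and 38.7% below in replicate 1. The highest values and these counts use TMM-scaled CPM. With library totals alone replicate 1 was below all controls also for Pdgfra, Tagln, Fap and Thy1. Its scaling factor, 0.742, was the lowest, so library totals alone put its genes lower than TMM scaling does. On that scale overexpression replicate 2 was below all controls for Vim and within their range for Acta2. Overexpression replicate 3 was within that range for Pdgfrb. Shares of all genes by tumour on that scale are not given here. Overexpression replicate 3 was highest there for Dcn and Lum, and control replicate 1 for Pdgfrb.

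Ratios of 2 genes within a tumour do not depend on how libraries are scaled. The ratio of Acta2 to Tagln estimated counts was 1.17, 1.15 and 1.25 in controls 1, 2 and 3 and 1.05, 0.972 and 0.909 in overexpression replicates 1, 2 and 3, lower in all 3 overexpression tumours. The ratio therefore stayed within 0.909 to 1.25 in tumours whose Tagln level ran from 235 to 683 CPM. Dcn to Lum was 1.21, 1.28 and 1.03 in the controls and 1.17, 0.782 and 1.18 in overexpression replicates 1, 2 and 3, with replicate 2 alone outside the range of the controls on the low side. Pdgfrb to Pdgfra was 3.20, 3.27 and 2.64 in the controls and 2.21, 2.94 and 3.71 in the overexpression tumours, which lay on both sides of the controls. The contractile and pericyte genes were also set against Dcn, a choice made after the levels were seen. Acta2 to Dcn was 2.71, 3.24 and 3.09 in the controls and 1.43, 6.44 and 4.50 in overexpression replicates 1, 2 and 3, and Rgs5 to Dcn was 2.80, 2.77 and 3.16 in the controls and 1.24, 4.38 and 1.45 in overexpression replicates 1, 2 and 3. In both ratios the controls stayed together and each overexpression tumour lay outside their range, 1 or 2 on each side. Dcn itself lay outside the range of the controls in all 3 overexpression tumours. Its CPM spanned 3.88-fold among them, against 1.13-fold for Rgs5, so both ratios carry the spread of Dcn. None of these ratios was tested, and ratios of other gene pairs were not counted to set beside them.

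**Figure D5:**
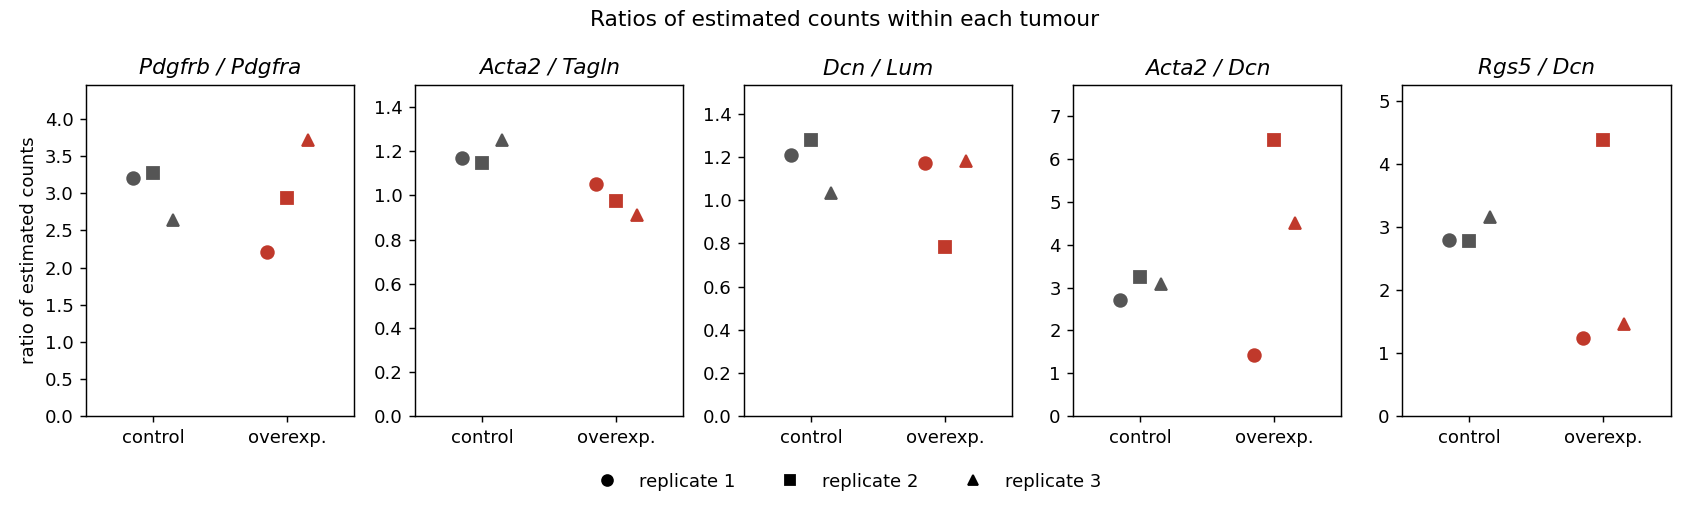
Ratio of estimated counts of 2 genes within each tumour, y axes starting at 0, for controls (grey) and overexpression tumours (red), with replicates 1, 2 and 3 as circles, squares and triangles. Acta2 to Tagln is lower in all 3 overexpression tumours. Acta2 to Dcn runs from 1.43 to 6.44 among them while the controls lie between 2.71 and 3.24. The ratios were not tested, and other gene pairs were not counted.

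The 10 genes together held a small share of the mouse-assigned counts, most of it from Vim. Their share was 0.380%, 0.357% and 0.397% in controls 1, 2 and 3 and 0.433%, 0.356% and 0.541% in overexpression replicates 1, 2 and 3. Overexpression replicates 1 and 3 were above all controls and replicate 2 just below them. Without Vim the share was 0.171%, 0.148% and 0.180% in the controls and 0.118%, 0.149% and 0.244% in the overexpression tumours. Replicate 1 then had the lowest share and replicate 3 the highest, with a mean of 0.167% ± 0.016 for controls against 0.170% ± 0.065 for overexpression tumours (SD, n = 3 each). These shares are of library totals without TMM scaling, unlike the CPM above. Replicate 1 had the lowest TMM factor, 0.742, so its place among the shares depends on the scale.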

How the data were processed

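The authors deposited estimated counts (expected counts, not normalized) per mouse Ensembl gene, per the file header. Per the submitters' processing notes the tools were HISAT2 2.2.1, Trimmomatic 0.39, edgeR, DESeq2 and featureCounts 2.0.6, with build mm10 and no roles stated. The table's name points to salmon (version and annotation not given in the sources used here). Columns were matched to tumours by name.

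Estimates were rounded and analysed in R 4.3.3 with edgeR 4.0.16: filterByExpr defaults (12637 genes, 99.5% of counts), TMM, robust quasi-likelihood F-test on group, Benjamini-Hochberg threshold 0.05 over all genes. Standard errors are the log2 fold change over the square root of F, and 95% intervals use the test's degrees of freedom. Log2 CPM used a prior count of 2. At this depth 3 counts stand for 0.632 to 0.852 CPM, which covers counting error only. An estimate was called whole within 0.001. The fit was run on counts simulated from its own dispersions and from the same dispersions scaled down, as a check of the procedure and not of the results here.

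Alternatives were DESeq2 1.42.0, limma 3.58.1 (voom), other scalings, no filter, no robust estimation, a replicate block and leaving out each library. Deviations of same-numbered libraries correlated at -0.09, -0.34 and -0.10, so numbers were not treated as pairs. The genes, all named, were chosen by ID and not by measured values, though with earlier results of these data known. The ratios to Dcn, the order counts and the comparison with the range of the controls were chosen after their values were seen. A further 10 lists of 77 genes by symbol were not used, since 0 gene IDs matched the name tables.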

Additional observations from a re-analysis of the deposited data

How the results depend on the processing

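The count of 0 genes of this set past the threshold was the same under all 15 alternatives, the replicate block included. Over all genes, edgeR's count of 2 became 29 (DESeq2, all rows), 28 (DESeq2, the filtered genes), 7 (limma-voom), 4 (library totals only), 14 (no filter) and 0 (replicate block, where 414 genes had p under 0.05 before adjustment). With 1 library left out it ranged from 0 to 14: 0 without control replicate 1 or overexpression replicate 3, 1 without overexpression replicate 1 and 14 without overexpression replicate 2. Higher and lower calls numbered 1 and 1 in edgeR, 7 and 21 with DESeq2 on the filtered genes, 2 and 5 with limma-voom, and 1 and 3 by library totals. The median log2 fold change of the set, 0.40, was 0.12 by library totals, where the median of all genes moved from 0.01 to -0.21, and 0.26 with the replicate block. With 1 library left out it ranged from 0.053 to 0.44.

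Tagln, Lum and Vim kept a positive and Pdgfrb and Rgs5 a negative log2 fold change under all 15 alternatives. Sign changes, none past the threshold, came in the other 5 genes. With 1 library left out, Pdgfra ranged from -0.18 to 0.096, Acta2 from -0.0024 to 0.68, Dcn from -0.057 to 0.77, Fap from -0.0091 to 0.66 and Thy1 from -0.15 to 0.087. Pdgfra was positive without control replicate 3, overexpression replicate 2 or overexpression replicate 3. Acta2 was negative without overexpression replicate 3, Dcn without overexpression replicate 1 and Fap without overexpression replicate 2. Thy1, at -0.0032 in edgeR, was at 0.0030 (DESeq2, all rows), 0.0037 (DESeq2, the filtered genes), 0.0038 (DESeq2 size factors), 0.010 (upper quartile) and 8.4e-05 (no filter). The fits without a library have fewer samples; otherwise the cause was not tested. The median 95% interval of the set spanned 1.67-fold to either side.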
